A study of Mus musculus with 32 samples.

Results

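Gata1, Gata2, Klf1, Tal1, Lmo2, Lyl1, Zfpm1, Gfi1b, Nfe2 and Ldb1, 10 of the 41388 genes listed in each table, were followed through RNA-seq of sorted mouse blood stem and progenitor cells. They were taken by name, from the symbols paired with their Ensembl identifiers, and the rule used no measured value. The list was, however, chosen with earlier results of these data known. All 10 were matched and all 10 passed the filter on low counts in each cohort. The series compared hematopoietic stem cells (HSC) with multipotent progenitors (MPP) from control mice, mice with a Jarid2 knockout (Jarid2-KO) and mice carrying the activated kinase Jak2V617F with or without it. JARID2 binds the Polycomb complex PRC2, which places the repressive mark H3K27me3 on chromatin.

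These genes encode the transcription factors that open and maintain the red cell and platelet programmes. GATA2 is the GATA factor of stem cells and early progenitors, GATA1 takes its place on many sites as cells enter the erythroid and megakaryocytic lineages, and FOG1, the product of Zfpm1, is the cofactor through which GATA1 does much of its work. TAL1 or its relative LYL1 pairs with an E protein on E-box sequences, LMO2 bridges that pair to a GATA factor, and LDB1 holds the assembly together and joins distant enhancers to promoters. KLF1 drives the globin and red cell membrane genes, and GFI1B is a repressor that GATA1 target genes depend on. NFE2 is a subunit of a DNA-binding dimer needed for platelet release.

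The Vav cohort had 4 groups of 3 libraries, from wild-type controls and Jarid2-KO mice aged 8 weeks, with HSC and MPP from each. The Mx1 cohort had 6 groups of 2 libraries, from wild-type controls, Jak2V617F mice and mice with both Jak2V617F and Jarid2-KO (called double mutant here), with HSC and MPP from each, at a labelled age of 10 weeks and 2 months after pIpC, the interferon inducer that switches on Mx1-CRE. All mice were C57BL/6, and every library, controls included, is labelled with its cohort's Cre driver. Vav-CRE acts in blood cells from their first appearance in the embryo, so the Vav knockout was not an adult deletion. Both cell types were sorted as lineage-negative cKit+ Sca1+ CD48- cells from pooled male and female mice, HSC being CD150+ and MPP CD150-, so the p-values measure the spread between pools. Counts over whole exons did not check the deletion: Jarid2 was at 80.2, 83.0 and 144 CPM (counts scaled to the library total) in Jarid2-KO HSC and at 95.0, 77.6 and 109 CPM in control HSC.

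Some libraries stood apart, and they bear on many of the values that follow. Total counts were 10473535 to 27232379 in Vav libraries and 7852483 to 20724168 in Mx1 libraries. Jarid2-KO MPP replicate 1 held 23379 CPM in 18 granulocyte and monocyte genes, against 1150 to 13812 CPM in the other Vav libraries, and 0.559% of its counts were mitochondrial, against 1.63% to 3.46%. In the Mx1 cohort, 6 libraries held 6.41% to 9.77% of their counts in a list of 20 heart muscle genes and the other 6 held 0.562% to 1.28%, whereas no Vav library exceeded 0.0184%. Slamf1, which encodes the sort marker CD150, was at 57.4 to 95.5 CPM in Vav HSC and 2.19 to 14.1 CPM in Vav MPP. It was at 0.196 to 12.7 CPM in the 4 Mx1 control and Jak2V617F HSC libraries, low for libraries labelled CD150+, and at 1.09 to 6.95 CPM in the MPP libraries of those genotypes. Cd48, an antigen that both gates left out, read 93.7 to 133 CPM in those 4 HSC libraries and 37.4 to 127 CPM in those MPP libraries, against 6.46 to 29.3 CPM in Vav HSC and 26.3 to 50.7 CPM in Vav MPP. The granulocyte enzyme gene Mpo read 3391 to 17224 CPM in the 8 libraries, against 216 to 4881 CPM in the Vav cohort. In double mutant HSC, Slamf1 read 30.8 and 124 CPM and Cd48 13.9 and 20.2 CPM. In double mutant MPP, Slamf1 read 6.75 and 8.15 CPM and Cd48 38.8 and 55.5 CPM. A list of eosinophil genes summed to 952 to 7261 CPM in the 8 control and Jak2V617F libraries. It summed to 28.1 to 369.5 CPM in the double mutant libraries and to 8.44 to 955 CPM in the Vav cohort. All libraries are called by their labels here.

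RefSeq promoter windows on build GRCm38.p6 were found for 8 of the 10 genes, with several starts for some. The 250 bases before a start are printed for Ldb1, Gata2 and Gfi1b, and for Klf1 and Lyl1, which were highest together in 1 library. Ldb1, Gata2 and Gfi1b passed the main edgeR test in the Vav cohort only in averaged contrasts added after seeing the data. Capitals mark matches to letters that the factors in this group are known to read, searched on both strands: GATAA for GATA factors, CAGNTG for E-boxes, CCNCACCC for KLF1 and TGANTCA for NFE2. The windows were chr19:46037071-46037320 on the minus strand for Ldb1 (the third of its starts), chr2:28621983-28622232 on the minus strand for Gfi1b, and on the plus strand chr6:88193641-88193890 for Gata2 (the first of its starts), chr8:84901732-84901981 for Klf1 and chr8:84701207-84701456 for Lyl1. They read 5′ to 3′ along the gene, the last base lying next to the start:
Ldb1: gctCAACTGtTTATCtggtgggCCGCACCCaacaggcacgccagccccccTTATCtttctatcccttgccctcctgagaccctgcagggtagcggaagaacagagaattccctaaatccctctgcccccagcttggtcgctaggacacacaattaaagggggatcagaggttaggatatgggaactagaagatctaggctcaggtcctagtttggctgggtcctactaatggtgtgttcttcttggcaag
Gfi1b: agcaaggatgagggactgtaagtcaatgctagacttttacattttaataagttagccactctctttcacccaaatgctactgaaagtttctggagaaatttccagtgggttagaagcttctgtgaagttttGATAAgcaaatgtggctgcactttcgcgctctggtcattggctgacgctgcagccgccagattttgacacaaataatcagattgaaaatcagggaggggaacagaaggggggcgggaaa
Gata2: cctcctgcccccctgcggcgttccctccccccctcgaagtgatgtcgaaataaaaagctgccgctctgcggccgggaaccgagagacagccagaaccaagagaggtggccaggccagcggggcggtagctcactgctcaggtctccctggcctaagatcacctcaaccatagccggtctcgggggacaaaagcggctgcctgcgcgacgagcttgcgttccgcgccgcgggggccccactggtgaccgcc
Klf1: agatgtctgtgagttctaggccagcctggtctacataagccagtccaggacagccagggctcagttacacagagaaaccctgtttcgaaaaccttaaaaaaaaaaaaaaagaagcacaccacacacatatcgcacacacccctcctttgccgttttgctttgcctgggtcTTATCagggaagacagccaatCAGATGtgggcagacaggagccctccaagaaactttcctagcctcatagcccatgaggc
Lyl1: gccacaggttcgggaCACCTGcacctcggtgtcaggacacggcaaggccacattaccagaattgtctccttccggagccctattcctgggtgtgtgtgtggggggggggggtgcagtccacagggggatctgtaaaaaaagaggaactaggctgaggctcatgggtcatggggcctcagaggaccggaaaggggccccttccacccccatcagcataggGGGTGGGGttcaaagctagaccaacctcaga
The other 2 Ldb1 windows, at chr19:46045312-46045561 and chr19:46039622-46039871, held none of the 4 patterns. The Ldb1 window printed, which lies inside the gene, held an E-box, 2 GATAA matches and a KLF1-type match, beginning 247, 240, 200 and 228 bases before the start, and none overlapped another. Gfi1b held 1 GATAA match and Klf1 a GATAA and an E-box match, at 119, 80 and 59 bases before the start. Lyl1 held an E-box and a KLF1-type match at 235 and 31 bases before the start, and the Gata2 window held none of the 4 patterns. Of all 12 windows of the group, 4 held GATAA, 3 held CAGNTG, 3 held CCNCACCC and 0 held TGANTCA. Of all 32851 RefSeq windows of the same length, 22.6%, 44.8%, 14.9% and 6.75% held them, so these matches are common letters and are given as a description of the sequence.

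Per length, Lmo2, Nfe2, Gfi1b and Gata2 stood highest in the Vav cohort and the order changed in the Mx1 cohort. In RPKM, which is CPM divided by gene length in kilobases, the medians over 12 Vav libraries were 203 for Lmo2, 120 for Nfe2, 97.0 for Gfi1b, 72.03 for Gata2, 19.2 for Lyl1, 12.9 for Gata1, 12.5 for Ldb1, 10.98 for Tal1, 1.84 for Klf1 and 1.04 for Zfpm1. Each gene's range over libraries overlapped that of its neighbour in this order. The medians over 12 Mx1 libraries were 75.1 for Gfi1b, 49.6 for Gata1, 42.9 for Lmo2, 38.5 for Nfe2, 17.5 for Gata2, 13.8 for Ldb1, 12.9 for Lyl1, 7.55 for Klf1, 6.67 for Tal1 and 3.84 for Zfpm1. Gata1 therefore moved from the sixth to the second place and Lmo2 from the first to the third, a comparison of cohorts made without a test. Lyl1 was above its relative Tal1 in RPKM in 10 of 12 Vav libraries and in 11 of 12 Mx1 libraries.

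The ratio of Gata2 to Gata1 RPKM was higher in most Vav libraries than in the Mx1 libraries, though the cohorts overlapped. In Vav control HSC it was 4.39, 4.11 and 4.93, in control MPP 5.81, 4.54 and 3.51, and in Jarid2-KO HSC 6.77, 8.51 and 9.31. All 3 Jarid2-KO HSC libraries were above all 3 control HSC libraries. Jarid2-KO MPP spread from 1.06 in replicate 1 through 7.65 to 20.4, covering the control range and more. In the Mx1 cohort the ratio was above 1 in 2 of 12 libraries, both of double mutant HSC, at 1.47 and 1.70. The remaining Mx1 libraries ranged from 0.0655 in a Jak2V617F HSC library to 0.805 in a control MPP library, so Gata1 stood above Gata2 per length in those 10. Double mutant HSC also differed from the other Mx1 HSC in Slamf1, Cd48 and eosinophil genes, as given above. The part of such differences between libraries in the ratio was not tested.

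**Figure D1:**
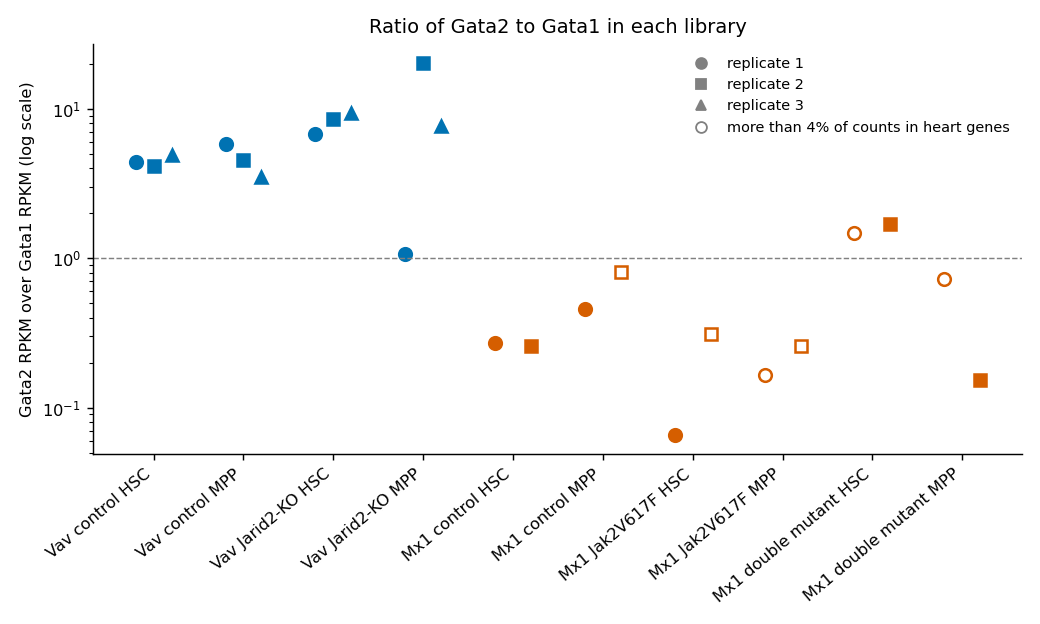
Ratio of Gata2 to Gata1 RPKM in each of the 24 libraries, by group, on a log axis. All 12 Vav libraries lie above 1 (1.06 to 20.4), whereas 10 of 12 Mx1 libraries lie below it (the lowest at 0.0655).

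In the Vav cohort, Jarid2 loss was compared with control within each cell type, and MPP with HSC within each genotype. No member passed an adjusted p of 0.05 by edgeR's quasi-likelihood test in HSC (0 of 10, against 0.569% of the 15818 genes tested), in MPP (0 of 10, against 0.948%), in the difference between those effects (0 of 10, against 0.0%), in control MPP against HSC (0 of 10, against 1.17%) or in Jarid2-KO MPP against HSC (0 of 10, against 0.525%). At an unadjusted p under 0.05 the members numbered 1, 2, 0, 2 and 3 in that order, and all genes 2695, 3055, 419, 1335 and 1716. DESeq2 called 1, 1, 0, 1 and 1 members, against 4.22%, 7.06%, 0.0443%, 2.98% and 2.52% of all genes. With limma-voom and quality weights 1, 0, 0, 2 and 1 passed, against 8.97%, 2.91%, 0.0%, 4.65% and 0.639%. These comparisons share libraries, so their counts are not independent. In HSC, the CPM of Jarid2-KO and control did not overlap for 3 of 10 members, against 26.8% of all genes, and in MPP for 1 of 10, against 21.7%. Between MPP and HSC the groups did not overlap for 5 of 10 in control, against 18.3%, and for 2 of 10 in Jarid2-KO, against 11.7%. The median log2 fold change over the 10 was -0.18 for Jarid2-KO in HSC and 0.41 in MPP (all genes -0.03 and 0.02), and -0.29 for MPP against HSC in control and 0.39 in Jarid2-KO (all genes -0.02 and 0.05). Without Jarid2-KO MPP replicate 1 the median was -0.03 for Jarid2-KO in MPP, with 5 of 10 members positive in place of 9, and -0.07 for MPP against HSC in Jarid2-KO.

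**Figure D2:**
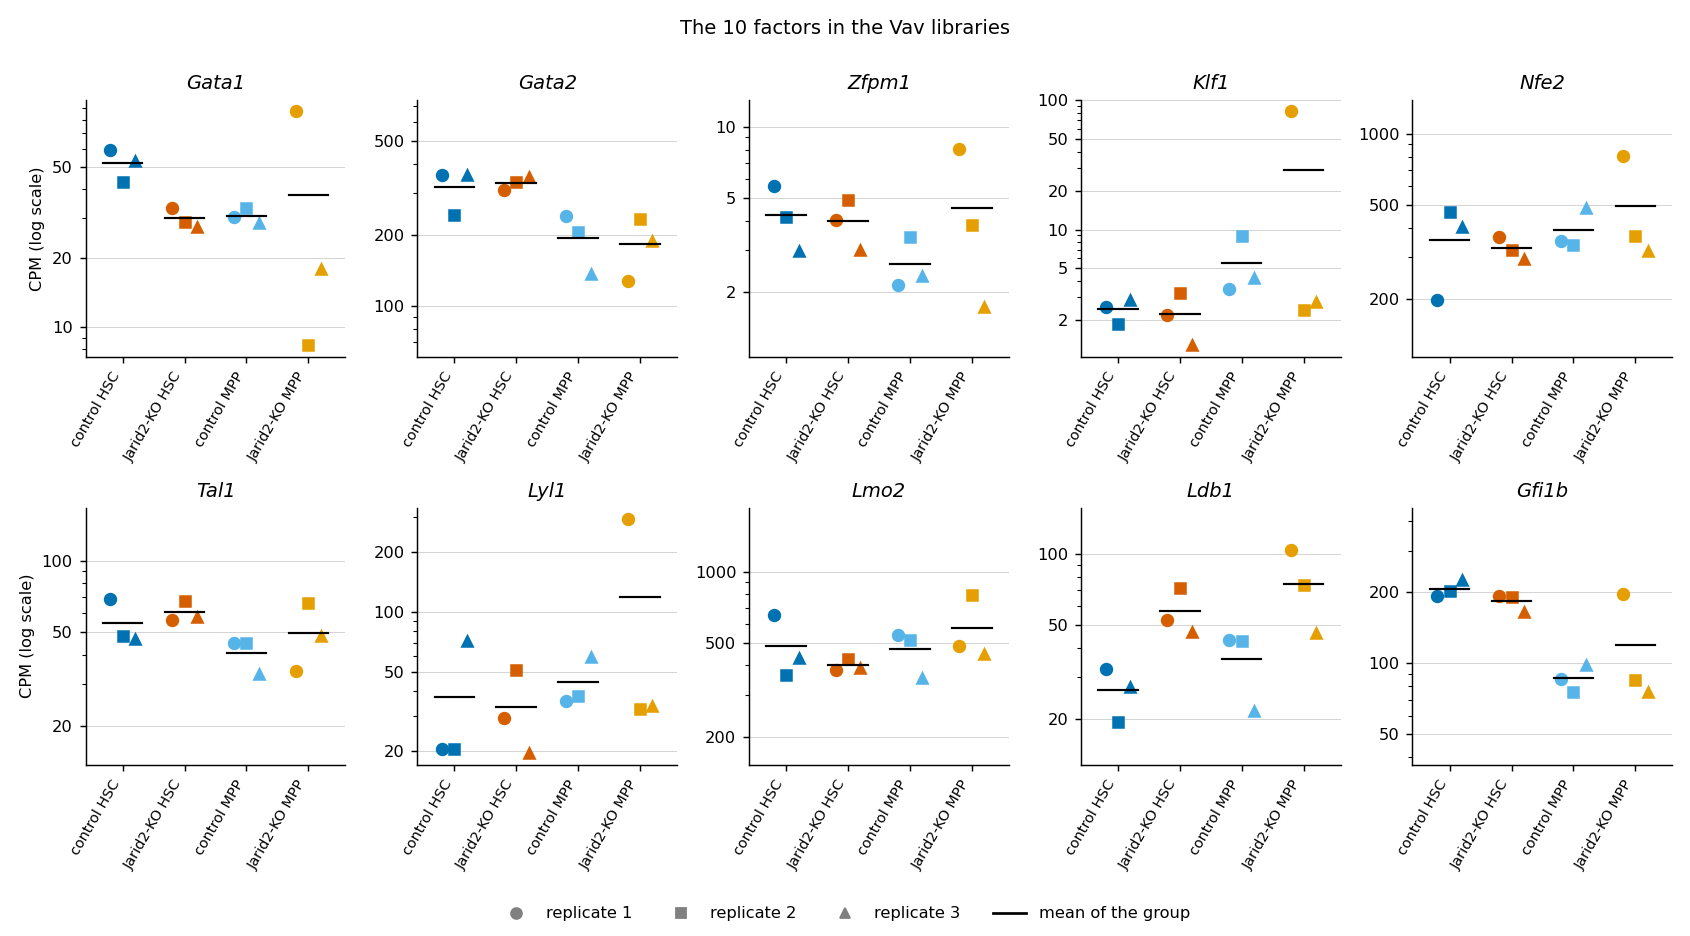
CPM of the 10 genes in the 12 Vav libraries, on log axes, with symbols for the replicates of each group and bars for group means. Ldb1 is higher in Jarid2-KO than in control of the same cell type in every library (46.9 to 71.6 against 19.4 to 32.6 CPM in HSC), and Jarid2-KO MPP replicate 1 is the highest point for Klf1 (82.0 CPM) and Lyl1 (291 CPM).

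Both comparisons were then averaged over the other factor, as contrasts of the same fit, which was chosen after Ldb1 had been seen higher in Jarid2-KO of both cell types and Gfi1b and Gata2 lower in MPP of both genotypes. Averaged over cell types, Jarid2-KO against control gave 1 of 10 members past the test, Ldb1, against 11.7% of all genes. Averaged over genotypes, MPP against HSC gave 2 of 10, Gata2 and Gfi1b, both lower in MPP, against 3.44% of all genes. These calls are not independent of the values that prompted the contrasts.

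Ldb1 was higher in CPM with Jarid2 loss in both cell types, but did not pass the main edgeR test in either. It read 32.6, 19.4 and 27.4 CPM in control HSC and 52.7, 71.6 and 46.9 CPM in Jarid2-KO HSC, 43.4, 42.9 and 21.6 CPM in control MPP and 103, 73.9 and 46.1 CPM in Jarid2-KO MPP. Every Jarid2-KO library lay above every control library of its cell type, with group means 2.15 times as high in HSC and 2.07 times as high in MPP. The log2 fold change was 1.05 (SE 0.32, edgeR adjusted p = 0.152) in HSC and 1.07 (SE 0.32, edgeR adjusted p = 0.106) in MPP, and the difference between the effects was 0.02 (SE 0.45). DESeq2 called Ldb1 in HSC (adjusted p = 0.0484) and in MPP (adjusted p = 0.0283). Averaged over cell types, the Ldb1 change was 1.06 (SE 0.23, edgeR adjusted p = 0.0137). That contrast was chosen after these values had been seen, and it called 11.7% of all genes. The averaged change remained past the threshold in all 12 fits that left out 1 library, with log2 fold changes of 0.90 to 1.19. Those fits reuse the libraries that prompted the contrast. Ldb1 (chr19:46032593-46045214, minus strand, mm10) shares 177 exon bases with Pprc1 on the opposite strand, and no source used here says whether counting used strand. Pprc1 read 34.6 to 39.7 CPM in control HSC and 42.7 to 48.4 CPM in Jarid2-KO HSC, with an averaged log2 fold change of 0.35 (SE 0.16, edgeR adjusted p = 0.162), so reads of the shared stretch cannot be assigned to one gene.

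Like Ldb1, its partners in the TAL1 complex did not pass the main edgeR test for Jarid2 loss in either cell type. Lmo2 read 651, 364 and 432 CPM in control HSC, 538, 513 and 356 CPM in control MPP, 382, 428 and 392 CPM in Jarid2-KO HSC and 485, 797 and 448 CPM in Jarid2-KO MPP. Its groups overlapped for Jarid2 loss, and its log2 fold changes were -0.33 in HSC and 0.30 in MPP. Tal1 read 69.01, 48.1 and 46.5 CPM in control HSC, 44.5, 44.6 and 33.2 CPM in control MPP, 55.9, 67.2 and 57.8 CPM in Jarid2-KO HSC and 34.0, 65.9 and 48.1 CPM in Jarid2-KO MPP. Control MPP lay below control HSC without overlap, 0.748 times as high on average, and the averaged MPP against HSC change was -0.39 on the log2 scale (SE 0.17, edgeR adjusted p = 0.307). Lyl1 varied widely within groups: 20.5, 20.4 and 70.9 CPM in control HSC, 35.7, 37.9 and 59.0 CPM in control MPP, 29.1, 50.9 and 19.5 CPM in Jarid2-KO HSC, and 291, 32.3 and 33.6 CPM in Jarid2-KO MPP. Its log2 fold change for Jarid2 loss in MPP was 1.45 (SE 0.77, edgeR adjusted p = 0.324), and -0.45 without Jarid2-KO MPP replicate 1. Lyl1 overlaps Nfix on the opposite strand by 4 exon bases.

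Gata2 and Gfi1b were the members that passed the averaged test of MPP against HSC, both lower in MPP. Gata1 and Tal1 also lay lower in control MPP than in control HSC without overlap. Gata2 (chr6:88193891-88207030, plus strand, mm10) read 358, 243 and 357 CPM in control HSC, 240, 206 and 137 CPM in control MPP, 309, 335 and 351 CPM in Jarid2-KO HSC, and 127, 234 and 189 CPM in Jarid2-KO MPP. MPP lay below HSC without overlap in both genotypes, 0.609 times as high in control and 0.552 times in Jarid2-KO. The log2 fold change was -0.78 (SE 0.23, edgeR adjusted p = 0.166) in control and -0.85 (SE 0.23, edgeR adjusted p = 0.157) in Jarid2-KO, and -0.82 (SE 0.16, edgeR adjusted p = 0.0114) averaged over both, with all 12 fits that left out 1 library past the threshold. With Jarid2 loss in MPP, Gata2 had a log2 fold change of -0.08, with overlapping groups. In bulk libraries, fewer cells of a type and less RNA per cell cannot be told apart.

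Gfi1b (chr2:28609450-28621982, minus strand, mm10) read 193, 201 and 225 CPM in control HSC and 85.9, 75.6 and 98.4 CPM in control MPP. It read 193, 190 and 165 CPM in Jarid2-KO HSC and 197, 85.1 and 75.3 CPM in Jarid2-KO MPP. Control MPP stood at 0.420 times control HSC without overlap, and in Jarid2-KO MPP the high value belonged to replicate 1 alone. The log2 fold change from HSC to MPP was -1.30 (SE 0.30, edgeR adjusted p = 0.0555) in control and -0.59 (SE 0.30, edgeR adjusted p = 0.509) in Jarid2-KO. Without Jarid2-KO MPP replicate 1 the Jarid2-KO change was -1.21 (edgeR adjusted p = 0.00385). Averaged over genotypes it was -0.95 (SE 0.21, edgeR adjusted p = 0.0229), past the threshold in 6 of 12 fits that left out 1 library, with adjusted p from 1.36e-05 to 0.0763. The call was lost without control HSC replicate 2 or 3, control MPP replicate 1 or 2, or Jarid2-KO HSC replicate 1 or 2. Jarid2-KO HSC lay just below control HSC, 0.885 times as high, the closest values rounding to 193 CPM in both groups.

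Gata1 was lower in Jarid2-KO HSC than in control HSC in every library, but not past the test. Gata1 lies at chrX:7959260-7978071 on the minus strand (mm10). It read 59.3, 43.0 and 52.7 CPM in control HSC and 33.2, 28.7 and 27.4 CPM in Jarid2-KO HSC, 0.576 times as high on average (log2 fold change -0.86, SE 0.57, edgeR adjusted p = 0.450). In MPP it read 30.0, 33.0 and 28.3 CPM in control, and 87.0, 8.35 and 18.0 CPM in Jarid2-KO. Control MPP thus lay below control HSC, and the Jarid2-KO MPP libraries held both the highest and the lowest Gata1 levels of the cohort. For Jarid2 loss in MPP, Gata1 had a log2 fold change of 0.35 with all libraries and -1.23 (SE 0.29, edgeR adjusted p = 0.0525) without replicate 1. Averaged over cell types the change was -0.25 (SE 0.40, edgeR adjusted p = 0.695), against -1.04 (edgeR adjusted p = 0.00322) without that library and -1.02 (adjusted p = 0.00520) in limma-voom, which gives libraries quality weights. With the 2 groups compared fitted alone, Gata1 passed in HSC for Jarid2 loss (edgeR adjusted p = 0.0447) and in control MPP against HSC (edgeR adjusted p = 0.0310). Averaged over genotypes, the Gata1 change of MPP against HSC was -0.22 (SE 0.40, edgeR adjusted p = 0.864). This change passed without Jarid2-KO MPP replicate 1 (-1.01, edgeR adjusted p = 0.00381) and in limma-voom (adjusted p = 0.00837).

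Klf1 and Zfpm1 were low throughout, apart from 1 library. Klf1 (chr8:84901928-84905295, plus strand, mm10) read 2.50, 1.86 and 2.86 CPM in control HSC, 3.44, 8.88 and 4.23 CPM in control MPP, 2.19, 3.22 and 1.28 CPM in Jarid2-KO HSC, and 82.0, 2.39 and 2.77 CPM in Jarid2-KO MPP. Control MPP was above control HSC without overlap, 2.29 times as high, while Jarid2-KO MPP overlapped both Jarid2-KO HSC and control MPP. Its log2 fold change for Jarid2 loss in MPP was 2.45 (SE 0.99, edgeR adjusted p = 0.198) with replicate 1 and -1.10 without it. Zfpm1 ranged from 1.72 to 8.02 CPM over the 12 libraries, on 18 to 128 counts a library, and its changes with Jarid2 loss were -0.15 and 0.81 on the log2 scale in HSC and MPP.

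Nfe2 stayed among the most abundant members in each Vav group. It read 197, 467 and 401 CPM in control HSC, 351, 337 and 485 CPM in control MPP, 366, 322 and 294 CPM in Jarid2-KO HSC, and 802, 367 and 318 CPM in Jarid2-KO MPP. The groups overlapped in each comparison, and its log2 fold changes for Jarid2 loss were -0.19 in HSC and 0.35 in MPP.

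**Figure D3:**
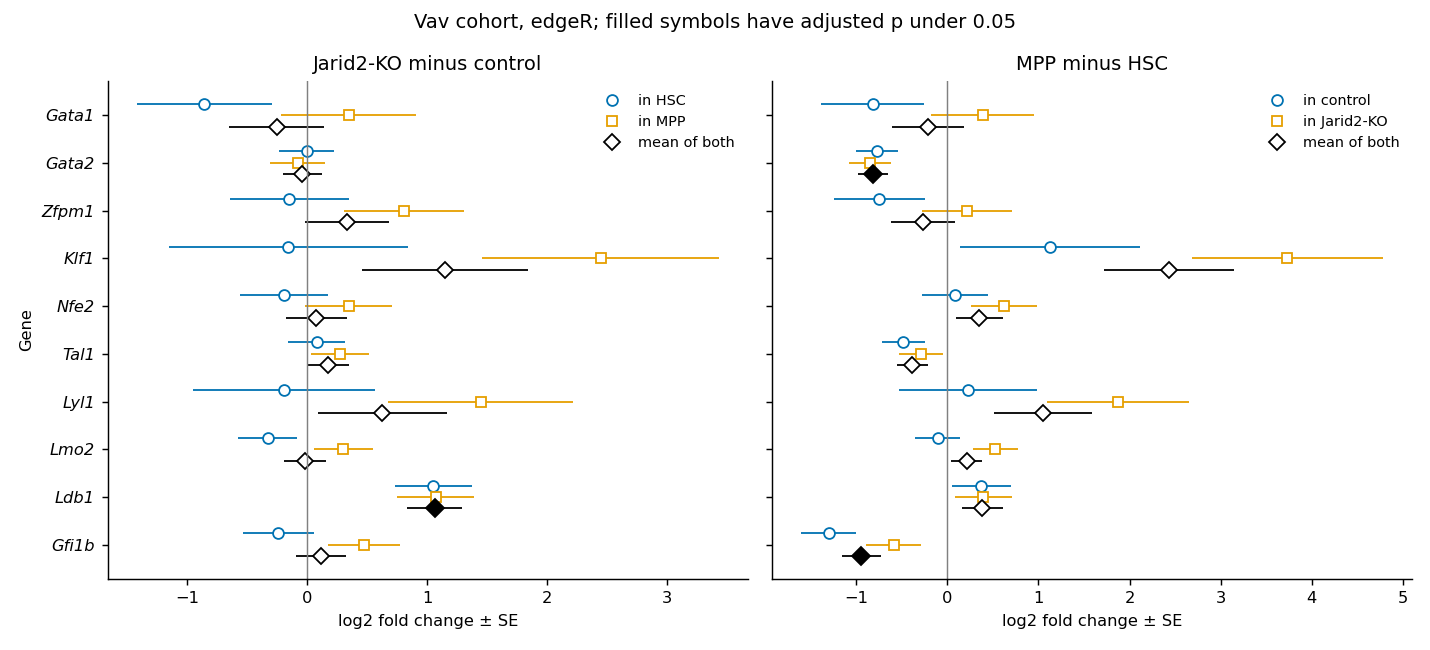
Log2 fold changes with standard errors of the 10 genes in the Vav cohort, for Jarid2-KO against control and for MPP against HSC, in each stratum and averaged. Filled points passed an adjusted p of 0.05: averaged Ldb1 at 1.06 for Jarid2 loss, and averaged Gata2 at -0.82 and Gfi1b at -0.95 for MPP against HSC.

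Jarid2-KO MPP replicate 1 set the direction of several of these values. It was the highest of the 12 Vav libraries for 6 members: Klf1 at 9.24 times the next highest library, Lyl1 at 4.10 times, Nfe2 at 1.65 times, Gata1 at 1.47 times, Zfpm1 at 1.44 times and Ldb1 at 1.398 times. It was the lowest for Gata2. Of the 35 red cell genes, 25 were highest of the 12 Vav libraries there and none was lowest, among them the erythropoietin receptor gene Epor at 37.7 CPM, against 3.01 to 13.3 CPM in the others. Their summed level was 8184 CPM and lay within the Vav range of 5474 to 11940 CPM. Its 1665 CPM in immediate early genes also lay above the 141 to 467 CPM of the others. The part of these other genes in the member values was not tested. The share of all genes that were highest in this library was not counted. Its counts of members and red cell genes are therefore not read as particular to either.

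The targets of these factors were described through lists chosen with earlier results known: 35 red cell genes, 27 megakaryocyte and platelet genes, 24 complex partners, 18 family relatives and 16 genes linked to GATA2 in stem cells. The GATA2-linked list holds the members Gfi1b, Lyl1, Zfpm1 and Tal1. It also shares Erg, Fli1 and Runx1 with the partners, so it is not separate from either. In control MPP against HSC, where 1.17% of all genes were called, 7 of 25 megakaryocyte genes tested fell and none rose, with a list median of -0.88 (all genes -0.02). Vwf, the carrier of platelet adhesion, read 72.9, 75.5 and 69.8 CPM in control HSC and 13.8, 14.4 and 12.0 CPM in control MPP, a log2 change of -2.51 (SE 0.23, edgeR adjusted p = 9.29e-05). Treml1, Itgb3 and Mmrn1, genes of platelet surface or granules, fell by 2.52, 1.67 and 1.46 on the log2 scale. Leaving out any 1 library of these groups left 1 to 3 calls. In Jarid2-KO, against 0.525% of all genes, 3 of 25 megakaryocyte genes fell, Vwf by 2.74, Selp by 2.57 and Gp9 by 1.41, with a list median of -0.64 (all genes 0.05), and leaving out 1 library gave 2 to 5. Averaged over genotypes, where 3.44% of all genes were called, 13 of 25 fell and none rose, and 11 to 15 were called when 1 library was left out.

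Of the red cell genes, 0 of 33 tested were called between MPP and HSC in control and 0 of 33 in Jarid2-KO by edgeR, and up to 6 and 11 in other fits. Over all genes, other fits called up to 735 in control and 563 in Jarid2-KO. The share of all genes in the fit behind each count is not given here. Averaged over genotypes, a contrast added after seeing the data with 3.44% of all genes called, 5 of 33 were higher in MPP and none lower, with a list median of 0.72 (all genes 0.02). Kel rose by 1.84 (SE 0.42), Ermap by 1.69 (SE 0.39), the carbonic anhydrase gene Car1 by 1.26 (SE 0.31) and the globin gene Hbb-bt by 0.93 (SE 0.23), all on the log2 scale. Without Jarid2-KO MPP replicate 1, 6 were higher and 2 lower, with a median of 0.36, and 1 to 10 were called over the fits that left out 1 library. Of 18 granulocyte and monocyte genes, markers of another lineage, 5 were higher in MPP in the same contrast and none lower (median 1.19). Their part in the red cell result was not tested. In summed CPM the red cell list was lower in control MPP (8924 to 9154) than in control HSC (9439 to 11940), the opposite direction to the median of its genes.

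**Figure D4:**
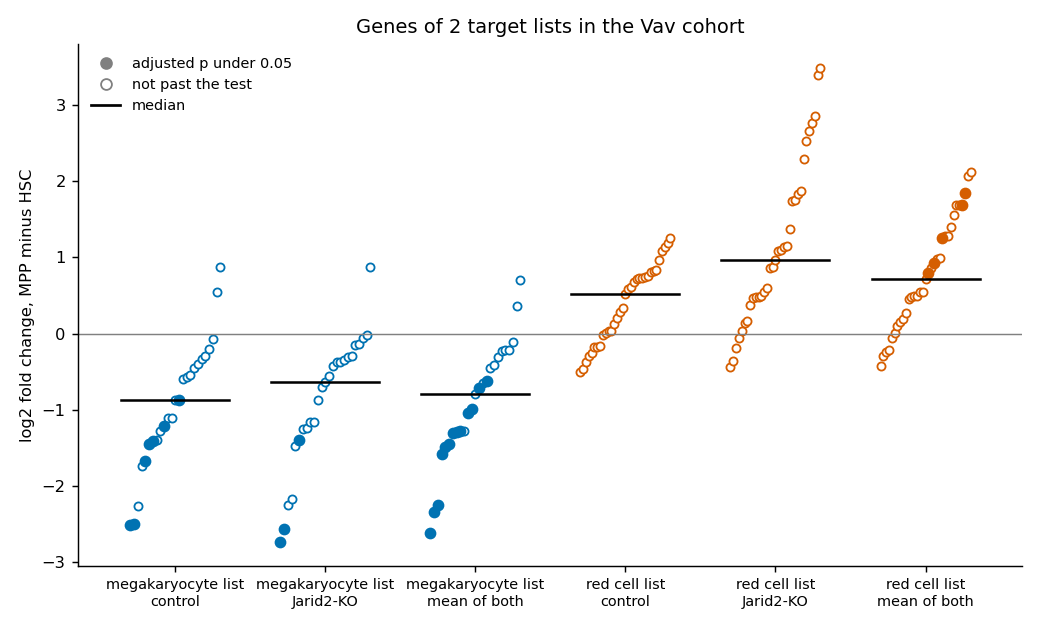
Log2 fold change of MPP against HSC for each tested megakaryocyte and red cell gene in Vav control, Jarid2-KO and their average, with filled points past an adjusted p of 0.05. In the average, 13 of 25 megakaryocyte genes were lower and 5 of 33 red cell genes higher.

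With Jarid2 loss, none of the 5 lists had a call by edgeR in HSC or in MPP, where all genes gave 0.569% and 0.948%. Other fits called up to 6 red cell genes in HSC and up to 5 in MPP. Leaving out Jarid2-KO MPP replicate 3 called 6 red cell, 6 megakaryocyte and 4 partner genes in MPP, and leaving out replicate 1 called 2 red cell genes. Over all genes, other fits called up to 1419 in HSC and 1306 in MPP. Fits that left out 1 library called 34 to 1512 in MPP. The share of all genes in the fit behind each list count is not given here. These counts are therefore not set against the shares of the main fit. In the average over cell types 11.7% of all genes were called, and 2 of 33 red cell genes, 3 of 24 partners and 1 of 12 family relatives are near or below that share, with 5 of 25 megakaryocyte and 3 of 16 GATA2-linked genes above it. In it, 1 red cell gene rose (Epb41, log2 0.42) and 1 fell (Car2, -0.63), with a list median of 0.02 (all genes 0.00). Without Jarid2-KO MPP replicate 1, 1 rose and 9 fell, with a median of -0.51. Of the megakaryocyte genes 3 rose (Treml1 by 1.41, Nbeal2 by 0.86 and Itgb3 by 0.79) and 2 fell (F2rl2, -1.14, and Ppbp, -1.08), and 1 to 7 were called when 1 library was left out. Among the partners, the small MAF gene Maff, which dimerises with NFE2, rose by 1.51, the E protein gene Tcf3 rose by 0.91, and the corepressor gene Cbfa2t3 fell by 0.51. Of the GATA2-linked list, Ccl5 fell by 1.24, the receptor gene Kit by 0.72 and Hhex by 0.57, and Klf6 was the 1 family relative called, at 0.67. Leaving out 1 library gave 0 to 10 red cell calls, 1 to 4 partner calls, 0 to 4 in the GATA2-linked list and 0 to 4 relatives. Those fits called 450 to 3420 of all genes. In the same average 8 of 18 granulocyte and monocyte genes were higher (median 1.15), or 4 without replicate 1, and their part in these changes was not tested.

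Among the family relatives, Ldb2, the paralogue of Ldb1, was lower in MPP than in HSC in both genotypes. It read 4.25 to 7.28 CPM in control HSC and 0.617 to 1.64 CPM in control MPP (log2 -2.25, SE 0.48, edgeR adjusted p = 0.0351), a call lost in each fit that left out 1 library. It fell by 3.49 (SE 0.52) in Jarid2-KO, where each such fit kept 1 relative past the test. Gfi1, the paralogue of Gfi1b, rose from HSC to MPP by 1.57 (SE 0.32, edgeR adjusted p = 0.0121) in the average over genotypes, opposite in sign to Gfi1b.

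In the Mx1 cohort, 0 of 10 members passed in each of the 11 comparisons by edgeR's quasi-likelihood test, and so did 0.0% of the 19616 genes tested. At an unadjusted p under 0.05 there were 0 to 2 members and 212 to 1249 genes in a comparison. DESeq2 called 1 member, Klf1, in double mutant MPP against HSC (0.189% of all genes) and in double mutant against Jak2V617F in HSC (1.72%), and limma-voom called none. The median log2 fold change of the members lay between -0.72 (Jak2V617F MPP against HSC, all genes -0.01) and 1.10 (double mutant against Jak2V617F in MPP, all genes -0.04) over the 9 comparisons of 2 groups. With 2 libraries a group, the values are given library by library. The share of all genes whose Mx1 genotype groups lay apart in the same way is not given here. No order of libraries below is therefore read as particular to a member.

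Lmo2 was the member with the clearest order of genotypes. It read 87.1 and 78.8 CPM in control HSC, 98.6 and 63.7 CPM in control MPP, 111 and 75.0 CPM in Jak2V617F HSC, and 79.1 and 71.0 CPM in Jak2V617F MPP. It read 169 and 281 CPM in double mutant HSC, and 145 and 263 CPM in double mutant MPP, so that all 4 double mutant libraries lay above all 8 others. The log2 fold change against control was 1.07 (SE 0.53, edgeR adjusted p = 0.767) in HSC and 1.10 (SE 0.54) in MPP, and against Jak2V617F in MPP it was 1.36 (SE 0.54). Stem cell marker genes had the same order, 1348 to 4988 CPM in the 4 double mutant libraries and 682 to 969 CPM in the 8 others, and the granulocyte and monocyte list the opposite one, 2838 to 6925 against 19102 to 80474 CPM. The part of these lists in the Lmo2 levels was not tested.

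Gata2 read 72.2 and 61.7 CPM in control HSC, 112 and 43.9 CPM in control MPP, 40.1 and 49.4 CPM in Jak2V617F HSC, and 24.5 and 38.4 CPM in Jak2V617F MPP. In the double mutant it read 79.4 and 294 CPM in HSC, and 55.3 and 86.2 CPM in MPP. The Jak2V617F libraries thus lay below the control and double mutant libraries of the same cell type, with a log2 fold change of -1.47 (SE 0.64) against control in MPP and of 1.74 (SE 0.65, edgeR adjusted p = 0.770) for the double mutant against Jak2V617F in HSC. Gata1 read 194 and 173 CPM in control HSC, 445 and 116 CPM in Jak2V617F HSC and 39.3 and 126 CPM in double mutant HSC. In MPP it read 179 and 39.7 CPM in control, 109 and 108 CPM in Jak2V617F, and 55.9 and 411 CPM in the double mutant. In MPP the range of the 2 double mutant libraries took in the values of the other groups except the lowest control.

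Klf1 had the widest range of any member in this cohort relative to its level. It read 10.7 and 9.45 CPM in control HSC, 38.7 and 12.1 CPM in Jak2V617F HSC and 2.36 and 2.66 CPM in double mutant HSC. In MPP it read 15.9 and 3.34 CPM in control, 13.4 and 11.8 CPM in Jak2V617F, and 11.4 and 63.4 CPM in the double mutant. Double mutant HSC lay below all other HSC libraries, and double mutant MPP above double mutant HSC. The log2 fold change of double mutant MPP against HSC was 3.94 (SE 1.06, edgeR adjusted p = 1.00), and that of double mutant against Jak2V617F in HSC was -3.64 (SE 1.04, edgeR adjusted p = 0.360). The red cell list stood at 34986 CPM in double mutant MPP replicate 2 and at 22862 CPM in Jak2V617F HSC replicate 1, the libraries with the highest Klf1, Gata1 and Gfi1b levels. No red cell or megakaryocyte gene was called by edgeR in the 11 comparisons. Other fits called up to 16 red cell genes in double mutant MPP against HSC, 11 in double mutant against Jak2V617F in HSC, 22 in double mutant against control in MPP and 7 megakaryocyte genes in a comparison. Over all genes, such fits called up to 45 in double mutant MPP against HSC and 539 in double mutant against Jak2V617F in HSC. In double mutant against control in MPP they called up to 633. The share of all genes in the fit behind each list count in this paragraph is not given. These counts are therefore not read as results about the lists. Without double mutant MPP replicate 1, edgeR called 7 red cell genes in double mutant MPP against HSC.

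Gfi1b read 152 and 191 CPM in control HSC, 173 and 53.3 CPM in control MPP, 457 and 123 CPM in Jak2V617F HSC, and 110 and 109 CPM in Jak2V617F MPP. It read 94.3 and 260 CPM in double mutant HSC and 52.5 and 341 CPM in double mutant MPP, and the groups overlapped within MPP and within HSC. Nfe2 ranged from 42.1 to 259 CPM, Lyl1 from 10.6 to 63.5 CPM, Tal1 from 17.4 to 71.8 CPM and Zfpm1 from 2.46 to 27.7 CPM. Ldb1 was the steadiest, from 33.5 to 65.4 CPM. It read 34.0 and 33.5 CPM in control HSC, 65.4 and 33.9 CPM in Jak2V617F HSC, and 51.6 and 52.3 CPM in double mutant HSC. In MPP it read 47.1 and 48.1 CPM in control, 56.04 and 50.7 CPM in Jak2V617F, and 47.7 and 61.8 CPM in the double mutant. Double mutant HSC thus lay above control HSC and between the Jak2V617F HSC libraries, and the MPP groups of the double mutant overlapped both others.

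**Figure D5:**
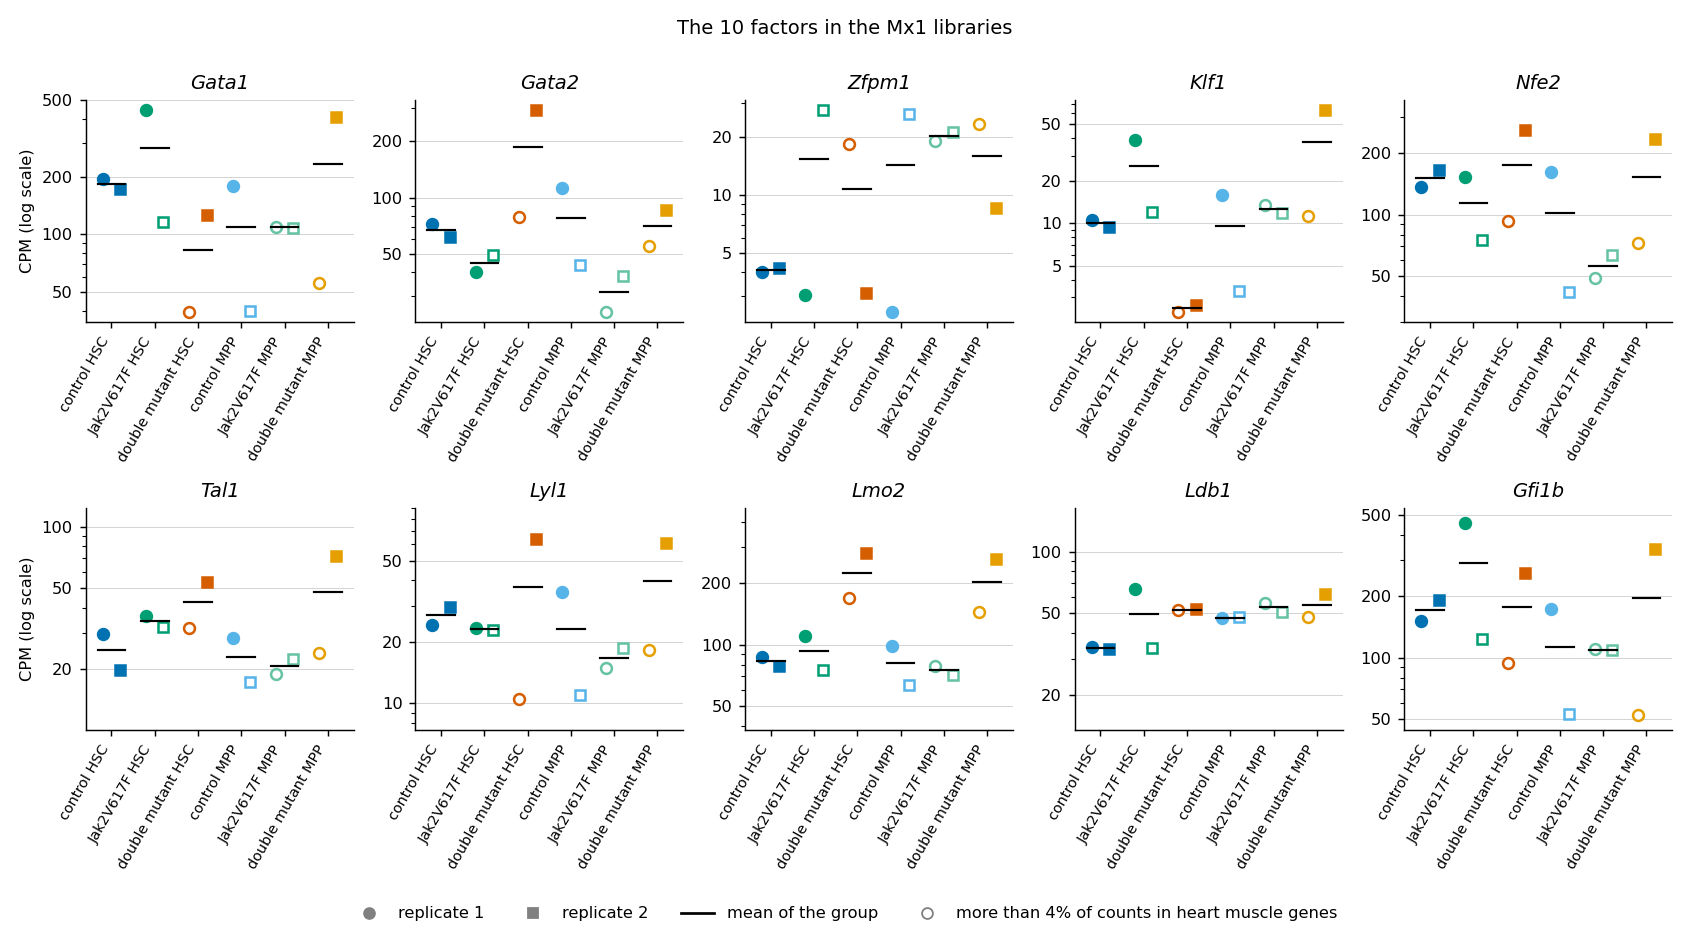
CPM of the 10 genes in the 12 Mx1 libraries, on log axes, with open symbols for libraries that held over 4% of counts in heart muscle genes. All 4 double mutant libraries lie above the others for Lmo2 (145 to 281 against 63.7 to 111 CPM), and the open symbols lie above the filled ones for Zfpm1 (18.4 to 27.7 against 2.46 to 8.53 CPM).

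Between the libraries above and below 4% of heart muscle counts, 5 of 10 members did not overlap, against 26.2% of all genes. In the 6 libraries above 4%, Gata1 read 39.3 to 116 CPM, against 126 to 445 CPM in the other 6. Gfi1b read 52.5 to 123 against 152 to 457 CPM, Nfe2 42.1 to 92.8 against 137 to 259 CPM, and Lyl1 10.6 to 23.0 against 23.3 to 63.5 CPM. Zfpm1 ran the other way, at 18.4 to 27.7 against 2.46 to 8.53 CPM, while Gata2, Klf1, Ldb1, Lmo2 and Tal1 overlapped. Both Jak2V617F MPP libraries were above 4% and both control HSC libraries below it, so for those groups the heart share and the group cannot be told apart. A yes or no term for lying above 4% was added to the fit, not the share itself. With it, edgeR called 3 of 10 members for double mutant against Jak2V617F in HSC, against 2.75% of all genes: Gata1 at -1.89 (adjusted p = 0.000347), Gata2 at 1.49 (adjusted p = 0.0238) and Klf1 at -3.13 (adjusted p = 0.00231) on the log2 scale. It called 1 of 10 for double mutant MPP against HSC, against 0.214% (Klf1, 3.31, adjusted p = 0.00664), and Lmo2 as 1 of 10 for double mutant against control in HSC, against 2.34% (1.41, adjusted p = 0.00881), and in MPP, against 1.58% (1.10, adjusted p = 0.0438).

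The genes with the most similar profiles to each member were ranked by Pearson's r over the 12 Vav libraries among 10013 genes, as a description of libraries that share depth, genotype and gate. Ldb1 went with Ppp1r9b (r = 0.98), the serum response factor gene Srf (0.97) and Eaf1 (0.97), which over the 12 Mx1 libraries gave 0.29, -0.01 and 0.34. Gata1 went with Myo1d (0.92), Arhgef39 (0.92) and Mfsd2b (0.91), with 0.14, 0.72 and 0.88 in the Mx1 cohort. Gata2 went with Plxnc1 (0.96), Cpne8 (0.94) and Klrb1c (0.92), with 0.84, 0.23 and 0.15 there. Gfi1b went with Tuba8 (0.95), Slc43a1 (0.91) and Hdac1 (0.90), with -0.76, 0.89 and 0.96 there. Nfe2 went with Sirt6 (0.97), Kdm2b (0.96) and Txnl4b (0.95), with 0.90, 0.79 and 0.83 there. Klf1 went with Nfkbid (0.96), Slc25a38 (0.94) and Tsc22d4 (0.94), with 0.41, 0.86 and -0.40 there. Tal1 went with Ryk (0.97), Lsm8 (0.95) and Rps14 (0.95), with -0.51, 0.62 and 0.85 there. Lyl1 went with Ltb (0.99), Cox5a (0.97) and Arcn1 (0.97), with 0.32, -0.90 and 0.27 there. Without Jarid2-KO MPP replicate 1 the lists changed: of the 3 closest genes, Klf1 and Gfi1b kept 0, Lyl1 kept 2, and Gata1, Gata2, Tal1, Ldb1 and Nfe2 kept 1 each. Between members, Klf1 and Lyl1 had r = 0.88 over the Vav libraries, or 0.51 without that library, and Gata2 and Tal1 0.79, or 0.71. Over the Mx1 libraries Gata1 had r = 0.91 with Gfi1b and 0.83 with Klf1, and Zfpm1 and Nfe2 had -0.90.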

How the data were processed

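RNA-seq of 24 libraries was analysed, and 8 H3K27me3 ChIP samples were not analysed here. Per the labels' protocols, libraries came from 3 to 5 ng of RNA with a SMARTer Ultra Low kit. Per the submitters' processing notes, the authors worked on mm10. The same notes name, without roles, Partek 6.6, HTSeq 0.8.0, featureCounts 1.4.5 of the Subread package, and STAR 2.0.4. Per the file headers, the deposited tables hold a count per gene, its CPM and its RPKM. CPM and RPKM were checked against the deposited counts, and tests used the counts.

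The 2 cohorts' tables list different exon blocks for 14573 genes, among them 8 of the 10 (not Klf1 and Lyl1), whose start, end and summed exon length were the same in both. Therefore each cohort was fitted on its own with edgeR 4.0.16 (R 4.3.3). The filterByExpr function, at its minimum count of 10 and minimum total of 15, selected genes. Libraries were scaled by TMM and tested by quasi-likelihood F tests with robust dispersion, with Benjamini-Hochberg adjustment over all genes at 0.05. This tested 15818 Vav genes on 8 residual degrees of freedom (biological coefficient of variation 0.337) and 19616 Mx1 genes on 6 (0.786), with a total depth per library as the report gives. The standard error (SE) is the log2 fold change over the square root of F. The groups came from the labels, and 16 comparisons were planned and 2 averages added after seeing the data. Alternatives were DESeq2 1.42.0 size factors and Wald test, limma-voom (limma 3.58.1), no filter, a minimum count of 20, a replicate block, the compared groups alone, a heart RNA term and leaving out each library. The script was tested on simulated data.

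The 10 genes and all lists were chosen with earlier results of these data known. List genes are named by rule: up to 4 a list and comparison, past 0.05, of largest change, at an average log2 CPM of at least 2. Similar genes are the 3 of highest r on log2(CPM + 1), among genes with a mean of at least 5 CPM; those of Lmo2 are not reported here. Promoters are from RefSeq.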

Additional observations from a re-analysis of the deposited data

How the results depend on the processing

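Of 248 alternative counts of members past the threshold, 211 kept within the range counted as unchanged, 31 rose and 6 fell. Apart from fits given above with a share of all genes, that share is not printed beside these counts. The counts therefore describe how the fits differ and are not read as results about the members. For Jarid2 loss in HSC (0 in the report), 1 member passed with no filter, with DESeq2 and with limma-voom, and 2 with the compared groups alone. In MPP, 3 passed with no filter and 1 with DESeq2, and 0 to 1 when 1 library was left out; for the difference between these effects 2 passed with no filter. For control MPP against HSC, 1 passed with no filter, a stricter filter or DESeq2, and 2 with limma-voom or the compared groups alone. For Jarid2-KO MPP against HSC, 3 passed with no filter, 1 with DESeq2 or limma-voom, and 0 to 1 with 1 library left out. For the added averages, Jarid2 loss (1) gave 3 with no filter, 2 with limma-voom and 1 to 2 with 1 library left out, and MPP against HSC (2) gave 4 with no filter and 1 to 3 with 1 library left out. In the Mx1 cohort, double mutant MPP against HSC gave 1 with no filter, DESeq2 or the heart term. There, double mutant against Jak2V617F in HSC gave 1 with no filter, DESeq2 or the crossed block and 3 with the heart term, and double mutant against control gave 1 with the heart term in each cell type.

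Counts over all genes moved too: 90 became 45 to 1419 for Jarid2 loss in HSC, 150 became 19 to 1306 in MPP, 185 became 125 to 735 for control MPP against HSC, and 83 became 23 to 563 for Jarid2-KO MPP against HSC. The averages gave 1382 to 3422 and 415 to 1026, and the Mx1 comparisons up to 633.

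For Jarid2 loss in MPP, 6 of 10 members turned sign without Jarid2-KO MPP replicate 1: Gata1, Gata2, Gfi1b, Klf1, Lyl1 and Nfe2. Among changes with an unadjusted p under 0.05 or a call in some fit, signs turned for Klf1, Lyl1 and Gata1. In limma-voom, Klf1 read -0.53 for Jarid2 loss in MPP, -0.38 in its average and -0.30 in the difference of effects, and Lyl1 read -0.028 in MPP and -0.17 in the average. Leaving out 1 library gave Klf1 -1.10 to 3.00 in MPP, -0.63 to 1.43 in the average and -0.96 to 3.14 in the difference. It gave Lyl1 -0.45 to 1.90, -0.32 to 1.03 and -0.27 to 2.11, with -0.040 to 2.33 for Jarid2-KO MPP against HSC. Each lowest value came without Jarid2-KO MPP replicate 1. Gata1 in the averaged MPP against HSC read -1.01 without that library and 0.019 without replicate 2. The cause was not tested.

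With the replicate block, 0 members passed in the planned comparisons, and 1 and 2 in the averages, as without it. Same-numbered Vav libraries had residual correlations of -0.254 to 0.299 over 18 pairs, and 4 of 12 were closest to their own number. These pairs include libraries of different genotypes, which come from different mice. HSC and MPP of the same genotype and number gave 0.299, -0.009 and 0.031 in control and 0.133, 0.026 and 0.149 in Jarid2-KO. The labels do not say whether such libraries share a pool of mice, so whether the number marks a pairing was not settled. Because some Mx1 pairs correlated negatively, a crossed replicate block was added after seeing the data: it called 129 genes for double mutant against Jak2V617F in HSC and 633 for double mutant against control in MPP. In both comparisons the crossed pairs were libraries on the same side of the 4% heart muscle threshold. This block and the heart share therefore cannot be told apart. Zfpm1 and Klf1, at as few as 18 and 23 counts in a Vav library, are limited by depth.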
